A study of Mus musculus with 18 samples.

Results

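RNA was compared between 3 libraries of mpkCCD cells treated with dDAVP and 3 control libraries, those numbered 1 to 3 in each group, which make up 6 of the 18 libraries of the series. They were chosen by number as the trio whose replicates were closest to each other, and every gene of the deposited count table was considered. mpkCCD cells are an immortalised mouse line from the cortical collecting duct of the kidney, here of the subline called mpkCCD11, grown as a tight monolayer on permeable supports. Both groups spent 24 h without serum. The dDAVP group was then exposed to 0.1 nM of the drug for another 24 h, still without serum, and the control group was not. The series pairs these RNA profiles with RNA polymerase II occupancy, which was not analysed here. One line at one dose and time was profiled, so the values describe this line and not the collecting duct of an animal.

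dDAVP (desmopressin) is a vasopressin analogue that acts on the V2 receptor of collecting duct principal cells. The receptor couples to Gs, adenylyl cyclase makes cyclic AMP, and protein kinase A then phosphorylates targets that include transcription factors of the CREB family. In this cell the pathway is known for moving the water channel aquaporin-2 into the apical membrane within minutes and for raising its gene expression over hours to days.

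The 6 libraries held 22.2 to 27.7 M counted reads (M, mega), of which ribosomal protein genes took 20.7 to 28.8%. Totals, detected genes, ribosomal share and the share of the 20 most abundant genes gave two-sided exact permutation p of 0.4 to 0.9, where 3 against 3 libraries cannot go below 0.1. The labels do not say whether replicates were separate cultures, so p-values measure only the spread between these libraries, which may be technical. The biological coefficient of variation, a gene's typical relative spread between replicates, was 0.292 here, against 0.744 in replicates 4 to 6 and 0.882 in replicates 7 to 9. A count of 0 in a library allows up to 3 counts, or 0.108 to 0.135 CPM (counts scaled to a library total of 1 M), by counting error alone.

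The libraries dDAVP 2 and dDAVP 3 stood apart from the other 4. They shared 69 genes at 0.5 CPM or more that exceeded 5 times the highest other library (with 0.05 CPM added), whereas each of the other 14 pairs of libraries shared 0 such genes. Dnase1, a secreted endonuclease, was at 43.7 and 44.3 CPM in these libraries and at 0.153 CPM or less in the others. Umod, uromodulin of the thick ascending limb, had 566 and 483 counts there, 1 count in dDAVP 1 and 0 counts in every control. Slc12a3, the thiazide-sensitive cotransporter of the distal convoluted tubule, was at 7.63 and 6.21 CPM against 0.0482 CPM or less. Slc12a1, another loop and distal tubule marker, had only 14 and 15 counts there. The Y-linked gene Eif2s3y had 148 and 155 counts there and 0 counts in each of the other 4 libraries. Other Y-linked genes had few counts in dDAVP 2 and 3: 6 and 3 for Uty, 1 and 1 for Ddx3y, 1 and 0 for Kdm5d. Of 10 loop and distal tubule markers 8 had a count, and their summed level was 35.9 CPM in dDAVP 2 and 29.5 CPM in dDAVP 3, but 0.0381 CPM in dDAVP 1 and 0.0427 to 0.101 CPM in the controls. The part of these transcripts in the differences between groups was not tested; the values of dDAVP 1, where they were at or near control levels, are therefore given beside most results, and the plot of the 24 most abundant of these genes shows the split.

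**Figure D1:**
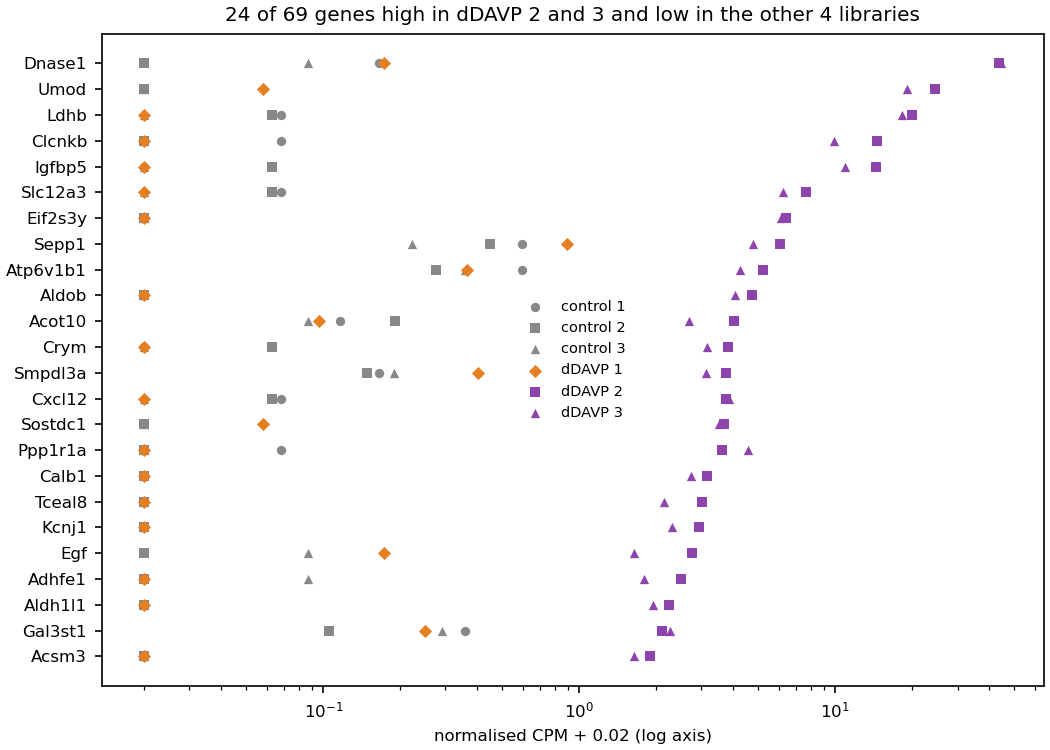
Normalised CPM plus 0.02 (log axis) in each of the 6 libraries for the 24 most abundant of 69 genes that were high in dDAVP 2 and dDAVP 3. The purple symbols of these libraries lie to the right for every gene, whereas dDAVP 1 (orange) lies among or near the controls (grey).

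The principal cell identity of the line was checked against 10 markers, all of which had a count. Avpr2, the V2 receptor, was at 23.7, 27.1 and 30.8 CPM in control 1 to 3 and at 25.2, 34.5 and 41.1 CPM in dDAVP 1 to 3, so the groups overlapped (log2 fold change 0.30, edgeR adjusted p = 0.680). Aqp3, the basolateral water channel of principal cells, was at 0.0855 CPM or less in all 6 libraries, and Aqp4 was at 0 in 5 of them. Of 7 intercalated cell markers 4 had a count, with Foxi1, Slc26a4 and Kit at 0 throughout. Their sum was 1.45 to 1.88 CPM in control and 3.62 to 10.3 CPM with dDAVP, from Atp6v0a4, Aqp6 and, in dDAVP 2 and 3, Atp6v1b1. Of 5 proximal tubule markers Slc34a1, Slc5a2 and Cubn were at 0, while the endocytic receptor Lrp2 was at 4.87, 6.67 and 6.06 CPM in control and at 3.47, 3.69 and 1.89 CPM with dDAVP. Of 4 leukocyte markers Ptprc and Cd3e were at 0; Cd68 and Csf1r, of macrophages, had counts in both groups, and the 4 summed to 2.14 to 4.53 CPM in control and 2.82 to 4.42 CPM with dDAVP. Over longer lists, 12 fibroblast markers summed to 0 in the controls and dDAVP 1, to 0.303 CPM in dDAVP 2 and to 0.0786 CPM in dDAVP 3. The sum of 9 endothelial markers was 0.193, 0 and 0.0337 CPM in control 1 to 3 and 0.114, 0.434 and 0.314 CPM in dDAVP 1 to 3. The part of these transcripts in the results was not tested.

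Of 8991 genes that passed the low-count filter, 41 (0.456%) were called by edgeR's quasi-likelihood test at a Benjamini-Hochberg adjusted p under 0.05. Of these, 34 rose with dDAVP (0.378%) and 7 fell (0.0779%). The 3 dDAVP libraries did not overlap with the 3 controls for any of the 41, which was also the case for 779 genes in the higher direction (8.66%) and 618 in the lower direction (6.87%). Most calls at this threshold were thus rises. At an unadjusted edgeR p under 0.05 the directions were near even, with 492 genes higher (5.47%) and 454 lower (5.05%). Log2 fold changes over all genes were positive for 49.4% and had a median of -0.01. DESeq2 called 123 genes (1.37%), 92 higher (1.02%) and 31 lower (0.345%), among them all 41. In the plot of all tested genes the rises reach far greater size than the falls.

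**Figure D2:**
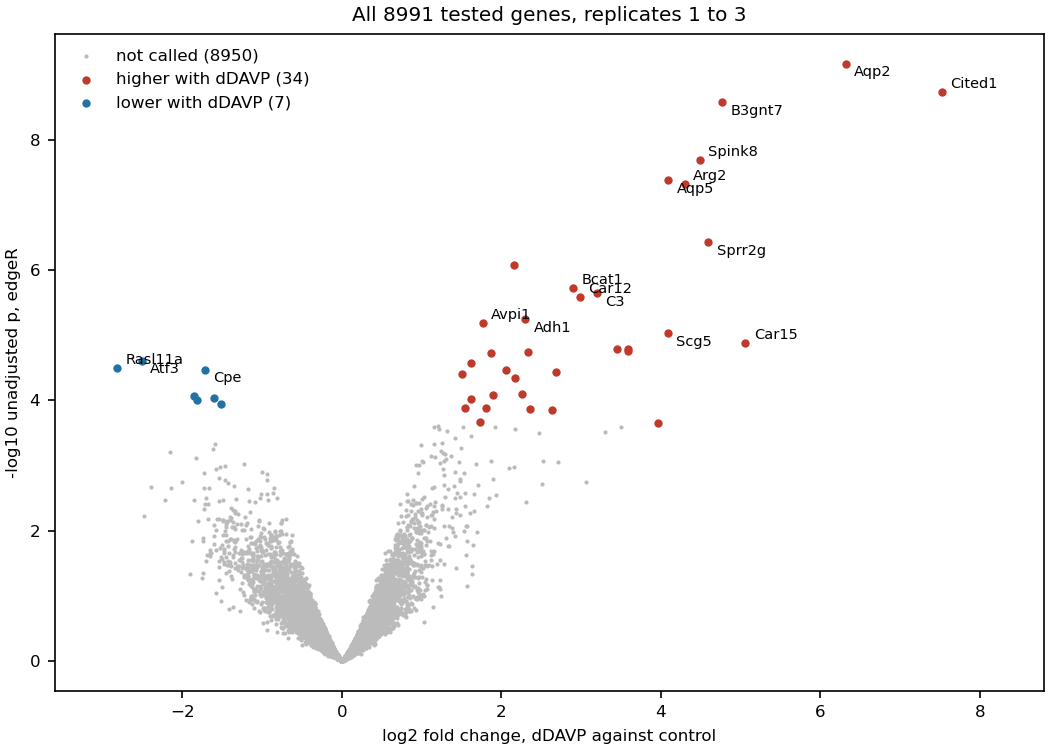
Log2 fold change (horizontal) and -log10 of the unadjusted edgeR p (vertical) of 8991 genes, replicates 1 to 3. The 34 called higher genes (red) extend to 7.52 for Cited1, whereas the 7 called lower genes (blue) extend to -2.82 for Rasl11a; grey points were not called.

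The number called rested strongly on single libraries. Without dDAVP 1 it became 774 genes (8.31%; 359 higher, 415 lower), including all 41. It was 14 without control 1, 13 without control 2, 15 without control 3 and 24 without dDAVP 2; it was 38 without dDAVP 3. Genes called in all 6 of these fits numbered 11, among them Aqp2, Cited1, B3gnt7, Spink8, Aqp5, Arg2, Sprr2g, Bcat1, C3 and Car12. With dDAVP 1 as the only treated library, a comparison added after the data were seen, 38 genes were called (0.405%), of which 23 were among the 41, and the direction was the same for all 41. That fit assumes that dDAVP 1 varies as the controls do. dDAVP 1 also took part in the fit that chose the 41 and lay outside the controls for each of them. The shared direction was therefore given in advance.

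Among the gene lists with tested members, water channels had the highest median log2 fold change, 4.09. Of 11 members only 3 were tested, and 2 of these were called higher (background 0.378%). Aqp6, given below, passed the count filter through the treated libraries, and members under the filter have no part in the median. This rank is therefore partly set by the filter. Aqp2, the vasopressin-regulated water channel (chromosome 15, 99579055 to 99584547, plus strand, GRCm38), was at 16.2, 18.8 and 20.9 CPM in control 1 to 3 and at 875, 1891 and 1689 CPM in dDAVP 1 to 3. Every treated library was far above every control, with dDAVP 1 the lowest of the treated. In bulk RNA, a change in the number of expressing cells and a change in RNA per cell cannot be told apart. Its log2 fold change was 6.32 ± 0.36 (SE; edgeR adjusted p = 6.09e-06). Per length it was the most abundant called gene in treated cells, at 1043 ± 271 FPKM (SD, n = 3) against 13.0 ± 2.95 FPKM in control. Aqp5, a water channel of glands and airway, lies next to Aqp2 on the same strand (chromosome 15, 99590782 to 99594829), 6.24 kb further downstream. It was at 0.820, 1.24 and 1.62 CPM in the controls and at 20.1, 19.0 and 24.5 CPM with dDAVP, a rise of 4.09 ± 0.33 on the log2 scale (edgeR adjusted p = 7.18e-05). For Aqp5 all 3 treated libraries lay close together, dDAVP 1 included. Aqp6, an intracellular channel of intercalated cells, went from 0.0965, 0.128 and 0.337 CPM to 0.801, 0.954 and 0.943 CPM without overlap but was not called (log2 fold change 2.16, edgeR adjusted p = 0.114). With 10 counts or fewer in each control, Aqp6 passed the count filter through the treated libraries. Whether reads from transcripts running past the end of Aqp2 were counted for Aqp5 was not tested.

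Promoter sequence is shown for 3 members that carry a CREB motif and bracket the response. They are the water channel itself, a called higher gene with a full palindromic site, and a called lower gene of the CREB/ATF family. The second is the only such gene among the 23 called higher genes with a promoter window. Each is the 250 bases before the gene's RefSeq start on GRCm38.p6, 5′ to 3′ on the gene's strand, with matches to the cAMP response element TGACGTCA or its 5-base core (TGACG, or CGTCA on the other strand) in capitals. The Aqp2 window is chr15:99578806-99579055 (plus strand), that of Arl4d is chr11:101665291-101665540 (plus strand) and that of Atf3 is chr1:191183334-191183583 (minus strand). The Atf3 window lies inside the annotated span of the gene (191170296 to 191218039), so it precedes an inner start and not the outermost start.
Aqp2: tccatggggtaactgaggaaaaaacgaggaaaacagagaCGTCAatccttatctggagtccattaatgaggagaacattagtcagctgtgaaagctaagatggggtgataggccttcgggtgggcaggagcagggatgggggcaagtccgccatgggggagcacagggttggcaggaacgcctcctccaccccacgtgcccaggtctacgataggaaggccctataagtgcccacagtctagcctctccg
Arl4d: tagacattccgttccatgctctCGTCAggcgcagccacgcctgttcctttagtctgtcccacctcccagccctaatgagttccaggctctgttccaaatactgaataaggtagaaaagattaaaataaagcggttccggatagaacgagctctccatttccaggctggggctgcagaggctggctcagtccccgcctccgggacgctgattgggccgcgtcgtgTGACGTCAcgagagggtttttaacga
Atf3: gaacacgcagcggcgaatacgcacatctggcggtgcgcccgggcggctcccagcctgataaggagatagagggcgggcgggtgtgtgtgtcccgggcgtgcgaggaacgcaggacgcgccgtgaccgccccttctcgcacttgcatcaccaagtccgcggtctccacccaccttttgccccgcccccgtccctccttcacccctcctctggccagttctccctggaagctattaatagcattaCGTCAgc
The full element was in 239 of 8853 promoter windows of tested genes (2.70%; 6925 of 8991 genes matched) and in 1 of 30 windows of called higher genes (3.33%; 23 of 34 genes matched). The core, which the full element contains, was in 2510 windows of tested genes (28.4%), in 11 of 30 of called higher genes (36.7%) and in 2 of 4 of called lower genes (4 of 7 genes matched). A match is a run of letters in the window and was not tested as a binding site.

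Cited1 rose more than any other called gene, and genes of cyclic AMP-linked transcription moved in both directions. Cited1 (chromosome X, 102247381 to 102252181, minus strand), a transcriptional coactivator that binds CBP and p300, was at 0.386, 0.214 and 0.438 CPM in the controls and at 42.3, 53.8 and 99.1 CPM with dDAVP. The lowest treated library was some distance above the highest control, and the log2 fold change was 7.52 ± 0.46 (edgeR adjusted p = 7.97e-06). With 26 control counts in all, the ratio of pooled counts was 185, with an exact 95% interval of 126 to 283 that covers counting error only. Its relative Cited4 rose by less, from 2.03, 1.67 and 2.59 CPM to 6.14, 12.4 and 9.90 CPM (log2 fold change 2.17, edgeR adjusted p = 0.0146), and was not called with dDAVP 1 alone. Cited2 overlapped between groups, with a log2 fold change of -0.20 that was 0.27 with dDAVP 1 alone (edgeR adjusted p = 0.848). Eya2, a coactivator of homeobox factors, was at 1.25 to 2.66 CPM in the controls and at 4.04, 5.51 and 7.50 CPM with dDAVP without being called (edgeR adjusted p = 0.109).

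Crem and Atf3, both of the CREB/ATF family, moved in opposite directions. Crem, which encodes activators and the cAMP-induced repressor ICER, rose from 0.627, 0.214 and 0.808 CPM to 2.94, 3.12 and 2.59 CPM (log2 fold change 2.36 ± 0.43, edgeR adjusted p = 0.0322), with similar levels in all treated libraries. Atf3, a stress-induced member (chromosome 1, 191170296 to 191218039, minus strand), fell from 1.93, 2.09 and 2.90 CPM to 0.419, 0.477 and 0.314 CPM (log2 fold change -2.51 ± 0.38, edgeR adjusted p = 0.0105). The treated libraries held only 11, 11 and 8 Atf3 counts, and dDAVP 1 was as low as the others. Avpi1, named for its induction by vasopressin, was far more abundant and rose from 35.1, 42.9 and 36.6 CPM to 112, 136 and 142 CPM (log2 fold change 1.76 ± 0.23, edgeR adjusted p = 0.00447). Of 23 tested cAMP and CREB target genes, 2 were called higher (background 0.378%) and 1 lower (background 0.0779%), and the median log2 fold change was 0.02, or -0.22 with dDAVP 1 alone. In this list 7 stood apart higher and 3 lower, 30.4% and 13.0% of its members, against 8.66% and 6.87% of all genes. Btc and Rgs2 of this list, both given below, had 6 counts or fewer in each control. Both passed the count filter through the treated libraries, so the higher share is partly set by the filter. Among those not called, Jun, a subunit of AP-1, was at 2.36, 3.59 and 2.36 CPM in control and at 0.992, 0.997 and 0.707 CPM with dDAVP (edgeR adjusted p = 0.0846). Btc, the EGF receptor ligand betacellulin, was at 0.0482 to 0.214 CPM in control against 1.33, 0.564 and 0.707 CPM with dDAVP (log2 fold change 2.52, edgeR adjusted p = 0.106).

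No gene of the V2 receptor, cAMP and PKA machinery was called among 22 tested, whose median was 0.10. Rgs2, a regulator that restrains G protein signalling, had the lowest p of them, with 0.0855 to 0.202 CPM in the controls and 0.992, 0.650 and 1.10 CPM with dDAVP (log2 fold change 2.47, edgeR adjusted p = 0.0556). Cdk18, a kinase known to act on aquaporin-2, was just outside the threshold at 23.4, 19.1 and 23.7 CPM against 45.5, 53.6 and 53.0 CPM (log2 fold change 1.20, edgeR adjusted p = 0.0502). The 28 tested genes of aquaporin-2 trafficking gave 0 calls and a median of -0.06.

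Salt-transport genes of the principal cell were not called by edgeR, while the ion-handling genes that it called were carbonic anhydrases. Car12, a membrane-bound carbonic anhydrase facing the outside of the cell (chromosome 9, 66713686 to 66766845, plus strand), rose from 0.338, 0.513 and 0.472 CPM to 3.13, 4.29 and 3.26 CPM. The treated libraries were alike and well above the controls (log2 fold change 2.99 ± 0.36, edgeR adjusted p = 0.00211). Car15, another membrane-anchored isoform (chromosome 16, 17835276 to 17838364, minus strand), had 3, 0 and 3 counts in the controls and 29, 84 and 99 counts with dDAVP. Its ratio of pooled counts was 34.8 (exact 95% interval 15.7 to 96.0), its edgeR adjusted p was 0.0079, and dDAVP 1 was less than 0.5 times the mean of dDAVP 2 and 3. Of the 4 tested carbonic anhydrases, the widely expressed cytosolic Car2 overlapped between groups (log2 fold change 0.24, and -0.04 without dDAVP 3). The 8 tested genes of an intercalated cell list of 21 had a median of 1.81, with 7 positive, but it was 0.77 with dDAVP 1 alone and 2.25 without it. Car15 and Aqp6 of that list had 10 counts or fewer in each control. They passed the count filter through the treated libraries, so the median and the positive share are partly set by the filter. Within that list the proton pump subunit Atp6v1b1 was at 0.343 CPM in dDAVP 1, inside the control range, and at 5.203 and 4.203 CPM in dDAVP 2 and 3. The subunit Atp6v0a4 was at 1.07 to 1.21 CPM in the controls and 2.48, 4.16 and 2.83 CPM with dDAVP (edgeR adjusted p = 0.107).

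Among sodium transport genes, Scnn1a, the alpha subunit of the epithelial sodium channel, was at 15.4, 12.5 and 16.8 CPM and at 11.02, 12.01 and 11.43 CPM with dDAVP (log2 fold change -0.38, edgeR adjusted p = 0.591). Scnn1b overlapped between groups (log2 fold change 0.87, edgeR adjusted p = 0.572; -0.46 with dDAVP 1 alone), and Scnn1g, at 0.707 CPM or less, did not pass the count filter. Of 15 tested regulators and subunits of that channel 0 were called, with a median of 0.05. Atp1b1, the beta subunit of the sodium pump, was at 967, 992 and 1026 CPM against 1533, 1676 and 1728 CPM, without overlap and without passing the test (log2 fold change 0.73, edgeR adjusted p = 0.229). Fxyd4, a pump modulator of the collecting duct, was at 70.0, 117 and 98.3 CPM against 160, 260 and 282 CPM (edgeR adjusted p = 0.0936). The calcium-permeable channel Trpv4 was at 77.5 to 84.4 CPM in control against 130, 195 and 165 CPM with dDAVP (edgeR adjusted p = 0.106). Among 18 tested principal cell genes, 1 was called higher (background 0.378%) and the median was 0.41, against -0.20 with dDAVP 1 alone. Of them 7, or 38.9%, stood apart higher (8.66% over all genes) and 2, or 11.1%, lower (6.87%), shares that are partly set by the count filter. DESeq2 called 4 of the 18 higher, Fxyd4 among them (DESeq2 adjusted p = 0.00788).

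Enzymes of amino acid and aldehyde metabolism were among the called genes. Arg2, the mitochondrial arginase that splits arginine to ornithine and urea (chromosome 12, 79130777 to 79156301, plus strand), was at 1.01, 0.769 and 1.25 CPM in control and at 22.7, 13.7 and 23.8 CPM with dDAVP. It rose by 4.30 ± 0.35 on the log2 scale (edgeR adjusted p = 7.18e-05), and dDAVP 1 was among its highest libraries. Bcat1, the cytosolic branched-chain aminotransferase, rose from 1.45, 1.84 and 2.80 CPM to 17.6, 11.8 and 16.5 CPM (log2 fold change 2.90 ± 0.34, edgeR adjusted p = 0.00189), with dDAVP 1 highest. The other 13 tested genes of branched-chain amino acid and arginine catabolism were not called. Of the list's 15 tested genes 12 were positive (49.4% over all genes) and 4, or 26.7%, stood apart higher (8.66%); the median was 0.75, but 0.17 with dDAVP 1 alone. Bckdha, of the branched-chain ketoacid dehydrogenase, was at 2.59 CPM in dDAVP 1, below every control, and at 14.3 and 12.7 CPM in the other treated libraries. Sat1, the polyamine acetyltransferase, overlapped between groups (36.0, 23.7 and 12.4 CPM with dDAVP, log2 fold change 1.82, edgeR adjusted p = 0.232). Smox, spermine oxidase of the same pathway, was called by DESeq2 and not by edgeR (1.41 to 2.26 CPM against 4.46, 5.16 and 6.72 CPM, edgeR adjusted p = 0.062).

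Adh1, the class I alcohol dehydrogenase that also oxidises retinol, rose from 5.98, 4.62 and 4.78 CPM to 21.6, 19.9 and 34.2 CPM (log2 fold change 2.30 ± 0.30, edgeR adjusted p = 0.00423). Aldh3b2, a lipid-associated aldehyde dehydrogenase, rose from 0.241, 0.470 and 1.01 CPM to 5.19, 5.03 and 11.3 CPM (log2 fold change 3.58 ± 0.52, edgeR adjusted p = 0.00843). Aldh1a7, close in sequence to Aldh1a1 so that reads may be shared, rose from 2, 3 and 4 counts to 18, 18 and 22 counts, a pooled ratio of 6.35 (exact 95% interval 3.13 to 14.6; edgeR adjusted p = 0.0322). Treated levels were level across libraries for Aldh1a7 and highest in dDAVP 3 for Adh1 and Aldh3b2. Of 18 tested retinoid and aldehyde enzymes, 16 had positive values (49.4% over all genes), 6, or 33.3%, stood apart higher (8.66%) and 0 lower (6.87%), and the median was 0.48, or 0.37 with dDAVP 1 alone. Aldh1a1 itself, a retinal-oxidising enzyme, was not called: it was at 0.419 CPM in dDAVP 1 and at 1.69 and 2.28 CPM in the other treated libraries (edgeR adjusted p = 0.106). Aldh1a7 and Aldh1a1 had 6 counts or fewer in each control. Both passed the count filter through the treated libraries, so the higher shares of this list are partly set by the filter.

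No member of 2 further metabolic lists was called. Of 21 tested NADPH and glutathione enzymes 17, or 81.0%, were positive, against 49.4% of all genes, 9 stood apart higher, 42.9% against 8.66%, and 0 stood apart lower, against 6.87%. The median was 0.57, or 0.67 with dDAVP 1 alone. Srxn1, sulfiredoxin, was at 5.50, 5.13 and 7.92 CPM against 15.5, 12.7 and 15.3 CPM (log2 fold change 1.22, edgeR adjusted p = 0.109). Idh1, the NADPH-producing isocitrate dehydrogenase of the cytosol, was at 10.4 to 14.4 CPM in control and at 60.2, 26.6 and 21.6 CPM with dDAVP (edgeR adjusted p = 0.157). Outside these lists Osgin1, an oxidative stress-induced growth regulator, rose from 6.32, 6.24 and 8.52 CPM to 16.4, 19.9 and 25.3 CPM (log2 fold change 1.55, edgeR adjusted p = 0.0321). Of 25 tested fatty acid genes 19, or 76.0%, were positive, against 49.4% of all genes, 8 stood apart higher, 32.0% against 8.66%, and 0 stood apart lower, against 6.87%. The median was 0.38, or 0.39 with dDAVP 1 alone. Cpt1a, which admits long-chain fatty acids to mitochondria, was at 513, 498 and 687 CPM against 1085, 1221 and 1022 CPM (log2 fold change 0.97, edgeR adjusted p = 0.111). Acsl4, an acyl-CoA synthetase for arachidonate, was at 22.3, 27.8 and 29.98 CPM against 77.6, 48.9 and 73.1 CPM (log2 fold change 1.32, edgeR adjusted p = 0.0547), and Fads1, the delta-5 desaturase, was at 173 to 236 CPM against 453, 431 and 353 CPM (log2 fold change 1.00, edgeR adjusted p = 0.106).

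The plot of gene lists sets these values beside the others. Respiratory chain genes had a median of 0.13 over 43 tested members, and ribosomal proteins -0.05 over 69, with 0 called in either. These medians were -0.24 and -0.63 with dDAVP 1 alone, below the main values, so both depended on whether dDAVP 2 and 3 entered the fit.

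**Figure D3:**
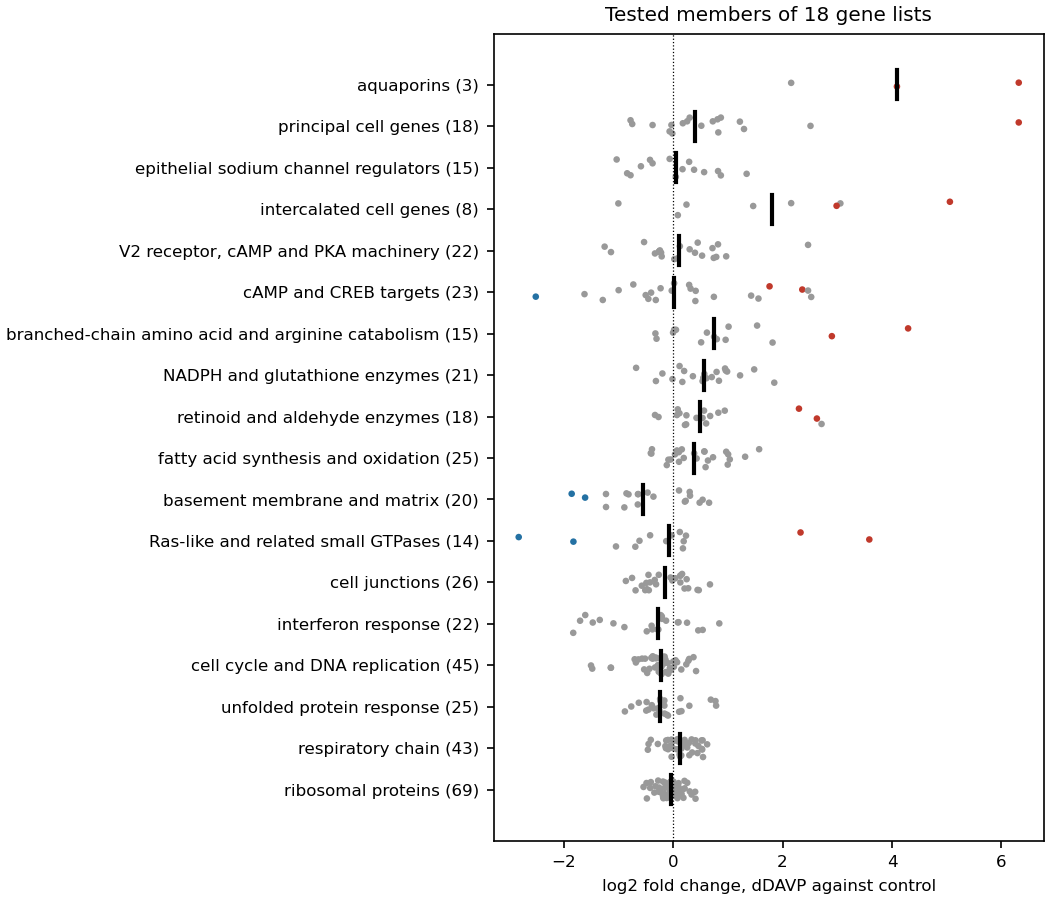
Log2 fold change of each tested member (point) of 18 gene lists, with the list median (black bar) and the median of all tested genes (dotted line); numbers in brackets are tested members. Red and blue points were called higher and lower; NADPH, retinoid and fatty acid enzymes have medians of 0.57, 0.48 and 0.38, and basement membrane genes one of -0.55.

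Spink8, a Kazal-type protease inhibitor (chromosome 9, 109812280 to 109826633, plus strand), was at 1.74, 2.91 and 3.64 CPM in control and at 55.9, 52.7 and 78.6 CPM with dDAVP. It rose by 4.49 ± 0.34 on the log2 scale (edgeR adjusted p = 4.57e-05) and all treated libraries were of similar height. The next gene downstream on the same strand, 6.12 kb away, is Nme6, of the nucleoside diphosphate kinase family. Nme6 rose from 7.28, 6.33 and 9.84 CPM to 24.3, 28.7 and 32.5 CPM (log2 fold change 1.86, edgeR adjusted p = 0.00843). Aqp2 with Aqp5 and Spink8 with Nme6 were the only pairs among the named called genes with no other annotated protein-coding gene starting between them.

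B3gnt7, a glycosyltransferase that extends keratan sulfate and mucin-type sugar chains (chromosome 1, 86302832 to 86307305, plus strand), was at 0.820, 1.11 and 0.876 CPM in control and at 23.3, 24.8 and 28.7 CPM with dDAVP. Its treated libraries were within a narrow range, dDAVP 1 included (log2 fold change 4.77 ± 0.30, edgeR adjusted p = 7.97e-06). It was the only one of 20 tested glycosyltransferases to be called, and the median of that list was -0.01. Sprr2g, a small proline-rich protein of cornified epithelia, rose from 1.21, 3.98 and 3.67 CPM to 59.95, 51.6 and 104 CPM (log2 fold change 4.59 ± 0.46, edgeR adjusted p = 0.000478); reads may be shared with other Sprr2 genes. Lypd3, a GPI-anchored surface protein of stratified epithelia, rose from 0.675, 0.128 and 0.910 CPM to 5.45, 6.63 and 7.11 CPM (log2 fold change 3.45, edgeR adjusted p = 0.00843). Fcgbp, a mucus protein that binds IgG, was abundant already in control, at 89.0, 95.2 and 126 CPM, and rose to 254, 351 and 345 CPM (log2 fold change 1.61, edgeR adjusted p = 0.0108). Fetub, a plasma protease inhibitor of the fetuin family, rose from 9, 6 and 12 counts to 54, 37 and 42 counts (edgeR adjusted p = 0.0246).

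C3, the central complement component (chromosome 17, 57203970 to 57228136, minus strand), was at 44.8, 17.3 and 55.5 CPM in control and at 346, 391 and 341 CPM with dDAVP (log2 fold change 3.19 ± 0.38, edgeR adjusted p = 0.00203). The treated libraries agreed closely while control 2 was the lowest control. C3 was the only complement gene called: of 5 tested, C3 included, 2 were positive, and the secreted chaperone Clu was at 258, 203 and 114 CPM in control against 72.4, 94.6 and 103 CPM with dDAVP (log2 fold change -1.09, edgeR adjusted p = 0.222). Nfkbiz, an inducible nuclear regulator of NF-kB target genes, rose from 12.6, 13.5 and 13.5 CPM to 64.4, 24.2 and 43.1 CPM (log2 fold change 1.73, edgeR adjusted p = 0.048), highest in dDAVP 1. Nfkbia, which encodes the inhibitor of NF-kB, overlapped between groups (log2 fold change 0.23, and -0.02 without control 1).

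Of 7 tested genes of prohormone processing and secretory granules, 1 was called higher (background 0.378%) and 1 lower (0.0779%). In this list 5 were positive (49.4% over all genes), 2, or 28.6%, stood apart higher (8.66%) and 1, or 14.3%, lower (6.87%). The median was 0.57, or 0.23 with dDAVP 1 alone. The called higher gene passed the count filter through the treated libraries, so the higher share is partly set by the filter. Scg5, a chaperone of the prohormone convertase PC2 (chromosome 2, 113776362 to 113829121, minus strand), had 1, 3 and 2 counts in control and 23, 44 and 41 counts with dDAVP. The pooled ratio was 17.7 (exact 95% interval 7.89 to 49.4; edgeR adjusted p = 0.00601), with dDAVP 1 at less than 0.5 times the mean of the other treated libraries. Cpe, carboxypeptidase E, which trims prohormone fragments (chromosome 8, 64592542 to 64693054, minus strand), fell from 60.1, 48.9 and 40.9 CPM to 15.9, 17.9 and 11.8 CPM (log2 fold change -1.72 ± 0.27, edgeR adjusted p = 0.0122). It was the only called lower gene that was also called with dDAVP 1 alone.

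The falls included the paired matrix proteins of the Fraser complex. Fras1 (chromosome 5, 96373955 to 96784728, plus strand), which anchors epithelium to basement membrane, fell from 10.0, 18.9 and 20.9 CPM to 4.50, 4.34 and 4.95 CPM (log2 fold change -1.85 ± 0.32, edgeR adjusted p = 0.0252). Frem2 (chromosome 3, 53513938 to 53657355, minus strand), its partner in that complex, fell from 27.5, 38.9 and 28.7 CPM to 13.5, 8.76 and 8.92 CPM (log2 fold change -1.61 ± 0.28, edgeR adjusted p = 0.0257). Both groups were apart for both genes, and Fras1 was as low in dDAVP 1 as in the other treated libraries. Of 20 tested basement membrane and matrix genes 12 were negative, near the 50.6% of all genes. Of these genes 6 stood apart lower, 30% against 6.87% of all genes, and 1 higher, 5.00% against 8.66%. The median was -0.55, or -0.42 with dDAVP 1 alone. Those not called included the laminin chain gene Lamb1, at 464, 401 and 410 CPM against 289, 224 and 212 CPM (edgeR adjusted p = 0.215).

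Small GTPase genes divided between the directions. Rasl11a (chromosome 5, 146845071 to 146847726, plus strand), a Ras-like GTPase, fell from 1.30, 3.08 and 2.22 CPM to 0.267, 0.303 and 0.354 CPM (log2 fold change -2.82 ± 0.44, edgeR adjusted p = 0.0122). Its relative Rasl11b fell from 6.37, 9.75 and 5.83 CPM to 2.10, 2.21 and 1.89 CPM (log2 fold change -1.82 ± 0.32, edgeR adjusted p = 0.0257). Treated levels of both genes were nearly equal in the 3 libraries. Arl4d, an ARF-like GTPase at the plasma membrane (chromosome 11, 101665541 to 101667832, plus strand), whose promoter is printed above, rose from 1, 7 and 9 counts to 52, 54 and 101 counts, a pooled ratio of 12.01 (exact 95% interval 7.32 to 21.0; edgeR adjusted p = 0.00843). Arhgef3, a guanine nucleotide exchange factor of small GTPases, rose from 2.99, 2.52 and 5.36 CPM to 22.4, 16.7 and 15.8 CPM (log2 fold change 2.33 ± 0.34, edgeR adjusted p = 0.00843). These 4 calls came from 14 tested genes of a list of Ras-like and related small GTPases with a median of -0.08. Rasgef1b, a Ras-family exchange factor, rose from 4.15, 4.96 and 6.64 CPM to 18.1, 15.5 and 14.8 CPM (log2 fold change 1.62, edgeR adjusted p = 0.0257). Tbc1d16, a Rab GTPase-activating protein, rose from 20.8, 27.9 and 45.8 CPM to 83.4, 104 and 144 CPM (log2 fold change 1.81, edgeR adjusted p = 0.0321).

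Mtus1 and Baiap2l2, which belong to no gene list, were both called higher, as were 34 of all 41 called genes. Mtus1, a microtubule-associated protein, rose from 2.60, 3.68 and 4.24 CPM to 19.6, 11.7 and 12.7 CPM (log2 fold change 2.06, edgeR adjusted p = 0.0122). Baiap2l2, an I-BAR protein of membrane protrusions, rose from 0.482, 0.385 and 0.606 CPM to 1.83, 3.34 and 4.44 CPM (log2 fold change 2.68, edgeR adjusted p = 0.0128), lowest in dDAVP 1. Of 30 tested actin and SRF genes and 26 tested junction genes 0 were called. The medians were 0.00 and -0.15, or -0.18 and -0.02 with dDAVP 1 alone. Of the actin and SRF genes 2 stood apart higher (6.67%) and 3 lower (10.0%), against 8.66% and 6.87% of all genes. Of the junction genes 2 stood apart higher (7.69%) and 6 lower (23.1%). Cdh1, E-cadherin, was at 1676 to 2111 CPM in control against 816 to 1147 CPM with dDAVP (log2 fold change -0.86, edgeR adjusted p = 0.199).

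Other called genes had varied roles. Rnf186, a membrane E3 ubiquitin ligase, rose from 2.80, 3.98 and 4.75 CPM to 11.2, 12.4 and 19.4 CPM (log2 fold change 1.89, edgeR adjusted p = 0.0251), and Abhd14b, an abundant hydrolase-fold protein, rose from 41.5, 49.4 and 56.7 CPM to 140, 120 and 159 CPM (log2 fold change 1.51, edgeR adjusted p = 0.0129). Smpdl3a, a phosphodiesterase related to acid sphingomyelinase, was the called gene with the least even treated libraries: it had 3, 3 and 5 counts in control and 10, 86 and 79 counts with dDAVP. It is also 1 of the 69 genes high in dDAVP 2 and 3, and its edgeR adjusted p was 0.0496. The RIKEN clone 1700011H14Rik, named after its values were seen, was also called, with a log2 fold change of -1.51 and 8.20, 6.50 and 5.30 CPM in dDAVP 1 to 3 against 17.7 to 20.3 CPM in control.

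**Figure D4:**
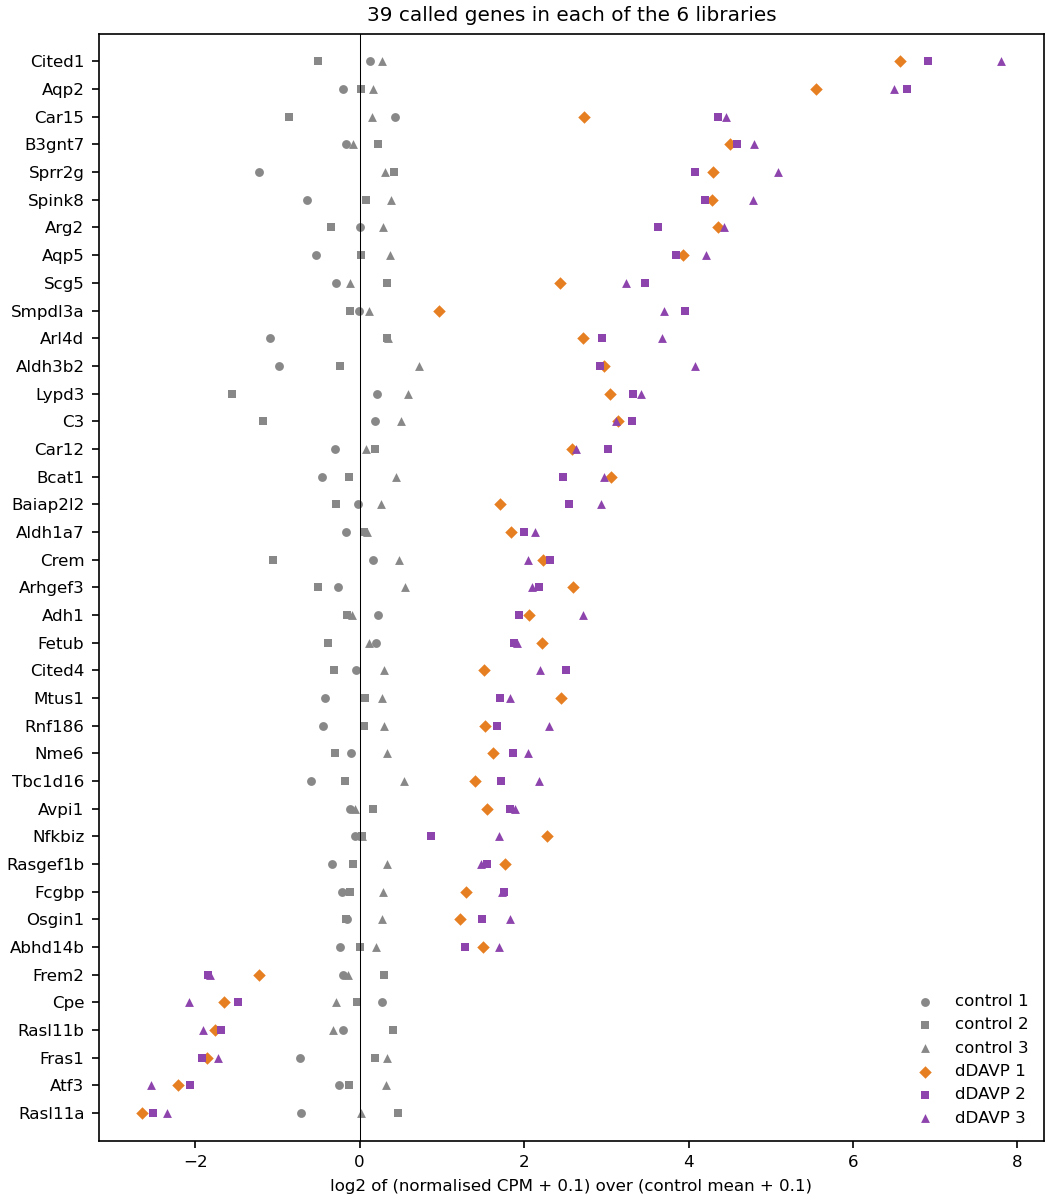
Level of 39 called genes in each library as log2 of normalised CPM plus 0.1 over the control mean plus 0.1. Controls (grey) lie around 0; dDAVP 1 (orange) and dDAVP 2 and 3 (purple) lie on the same side of the controls for every gene, and dDAVP 1 falls clearly behind for Car15, Scg5 and Smpdl3a.

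Within the treated group, dDAVP 1 was the lowest library for 19 of the 34 genes that rose. The ratio of dDAVP 1 to the mean of dDAVP 2 and 3 ran from 0.112 (Smpdl3a) to 1.91, with a median of 0.803, and was under 0.5 for Aqp2, Scg5, Car15, Baiap2l2 and Smpdl3a. For the 7 genes that fell it ran from 0.813 to 1.53. All 34 risen genes were above every control in dDAVP 1 as well, as the plot of called genes by library shows. This restates that their groups did not overlap.

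Several pathways gave 0 calls. Of 45 tested cell cycle and DNA replication genes 35 were negative (50.6% over all genes), with a median of -0.22, or -0.11 with dDAVP 1 alone. Of them 4 stood apart lower, 8.89% and near the 6.87% of all genes, and 0 higher, against 8.66%. Of 22 tested interferon response genes 16 were negative (50.6% over all genes), with a median of -0.28, or -0.31 with dDAVP 1 alone. Of them 5 stood apart lower, 22.7% against 6.87% of all genes, and 1 higher, 4.55% against 8.66%. Rtp4, an interferon-induced chaperone, was at 20.8, 16.3 and 8.96 CPM against 6.37, 2.34 and 4.24 CPM (log2 fold change -1.83, edgeR adjusted p = 0.103), and DESeq2 called it. Of 25 tested genes of the unfolded protein response 18 were negative, with a median of -0.23, or -0.06 with dDAVP 1 alone. Among them Hspa5, the main chaperone of the endoplasmic reticulum, was at 1287, 1099 and 911 CPM against 866, 655 and 613 CPM, while Xbp1, one of its regulators, was at 94.3, 72.6 and 106 CPM against 140, 143 and 157 CPM. Neither passed the test (edgeR adjusted p = 0.393 and 0.344). TGF-beta, BMP and Id genes had a median of -0.21 over 16 tested (-0.14 with dDAVP 1 alone), and sterol synthesis genes one of 0.02 over 23 (0.07 with dDAVP 1 alone).

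The same contrast was then taken in libraries that had no part in these calls. Replicates 4 to 6 and 7 to 9 each gave 0 edgeR calls (0.0% of 10387 and of 11367 genes), although 479 and 590 genes had an unadjusted p under 0.05 (4.61% and 5.19%). Of the 34 genes that rose, 32 were tested in replicates 4 to 6: 28 had a positive value against 48.1% of all genes, the median was 1.25, and 11 stood apart higher against a background of 4.67%. These were Aqp2, Cited1, B3gnt7, Bcat1, C3, Car12, Avpi1, Arl4d, Arhgef3, Crem and Nfkbiz. In replicates 7 to 9, 24 of 32 were positive against 48.9% of all genes, the median was 0.56, and Cited1, B3gnt7, C3 and Adh1 stood apart higher against a background of 4.56%. Of the 7 that fell, all were negative in replicates 4 to 6 (51.9% of all genes were), where Atf3 and Rasl11a stood apart lower (background 5.72%), and 5 were negative in replicates 7 to 9 (51.1%), where 0 stood apart lower (background 4.33%). Among the 39 called genes tested in each set, 0 stood apart in the opposite direction.

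Over 8784 genes tested in all 3 sets, 9 stood apart higher in every set, among them the called genes Cited1, B3gnt7 and C3 and the uncalled Eya2, Idh1 and Stat3, and 0 stood apart lower in every set. Fras1 had a log2 fold change of 1.80 in replicates 7 to 9 against its fall in replicates 1 to 3, and Spink8 one of -1.61 against its rise, both with overlapping groups there. An interaction of set and treatment over all 18 libraries called 0 of 11710 genes, with 819 under 0.05 before adjustment, so no gene is shown to respond differently in replicates 1 to 3. The plot of the 3 sets shows the wider errors of the other libraries.

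**Figure D5:**
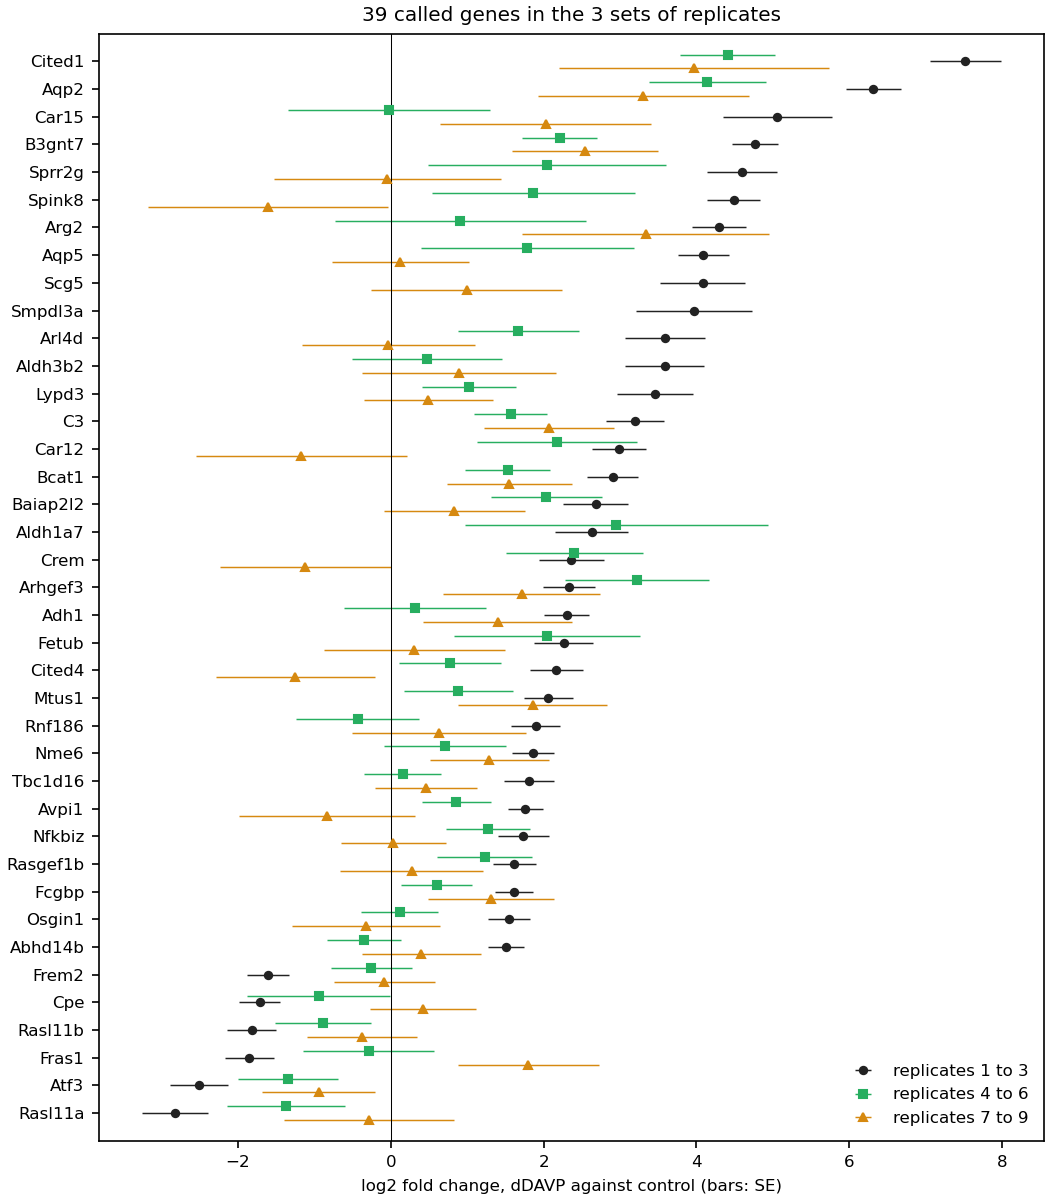
Log2 fold change with its SE of 39 called genes in replicates 1 to 3 (black), 4 to 6 (green) and 7 to 9 (orange); a missing symbol means that the gene did not pass the count filter of that set. Values of the other sets are mostly smaller than the black ones, with medians of 1.25 and 0.56 for the genes that rose.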

How the data were processed

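Per the submitters' processing notes, reads were aligned to mouse build mm10 with tools that include STAR 2.4.0.1, SAMtools and HTSeq; the annotation and strand setting are not given in the sources used here, so overlapping genes on opposite strands cannot be told apart. The labels' protocols describe single-end reads of 50 bp from 20 ng of RNA and name a pair of library methods without saying which library had which. The authors deposited raw counts per gene (24111 genes) and FPKM values per gene (24076 genes). Of 27 symbols turned into dates by a spreadsheet, 22 were restored by matching both tables within 0.5% and the other 5 had 0 counts. From the deposited counts, edgeR 4.0.16 in R 4.3.3 fitted quasi-likelihood models to the 6 libraries with TMM normalization and filterByExpr (8991 genes), without covariates, two-sided, calling genes at a Benjamini-Hochberg adjusted p under 0.05 over all tested genes. A gene low in either group could pass the filter through the other group alone. Shares of tested list members that were positive, negative or apart are therefore partly set by the filter. Normalised CPM use TMM-scaled library totals, SE are on the log2 scale, and a gene stood apart where no library of one group overlapped with the other group. Counting error limits low genes: without molecular identifiers, reads are not independent molecules, and intervals and floors cover counting error only. Replicate pairs differed by more than sampling noise (chi-square per degree of freedom 65.9 or more), so none was a duplicate.

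Alternatives were other normalizations, DESeq2 1.42.0, limma 3.58.1 (voom, and log2 of FPKM plus 1 or 0.1), a strict filter (at least 1 CPM in 3 of the libraries) or none, robust dispersion, the replicate number as a block and each library left out; dDAVP 1 alone against the controls was added after the data were seen. The fits were tested on simulated data. The libraries, the 52 gene lists and the tests were chosen with earlier results of these data known; lists were described by counts and medians, with no test of their own. Named genes were every called gene (without predicted genes, RIKEN clones and small RNAs), the called members of each list and up to 3 further members with the lowest p, the main water and sodium channels, Avpr2 and Cited1, and up to 8 genes per direction called by DESeq2 only, their mean being 1 CPM or more; the text gives part of these, some genes are not reported here, and genes high in dDAVP 2 and 3 were named after their values were seen. Positions are from GENCODE M21 (GRCm38) and promoters from RefSeq (GRCm38.p6). Tables and plots used matplotlib 3.10.9, scipy 1.17.1, pandas 2.3.3 and numpy 2.4.6 under Python 3.11.15.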

Additional observations from a re-analysis of the deposited data

Results flagged for a closer look

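Some named genes stood apart between groups in replicates 1 to 3 and stood apart in the opposite direction in another set of replicates; none of them was called in replicates 1 to 3, and the interaction of set and treatment called none of them. Log2 fold changes in replicates 7 to 9 were -0.38 for the syntaxin Stx4a, -2.50 for the circadian factor Dbp and -1.96 for Acsl4, all positive in replicates 1 to 3. In the same set they were 0.85 for the galactosyltransferase B4galt5, 0.72 for Lamb1, 0.89 for the syndecan Sdc4 and 0.70 for the complex II subunit Sdhc, all negative in replicates 1 to 3. In replicates 4 to 6 they were -0.60 for Sprr1a and -4.51 for the acetyltransferase Sat2, against positive values, and 2.02 for the sterol enzyme Hmgcs1, against a negative one. Sgms2, a sphingomyelin synthase, was lower in replicates 1 to 3 and higher in both other sets, at 1.10 and 1.92. Over all genes, 51 of 8810 stood apart in opposite directions in replicates 1 to 3 and 4 to 6, against 114 in the same direction; for replicates 7 to 9 this was 47 against 78 of 8943.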

How the results depend on the processing

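Against 41 called genes (34 higher, 7 lower), DESeq2 called 123 (92 and 31), edgeR without a count filter 207 (172 and 35), and the replicate block 101 (65 and 36). Deviations of libraries with equal replicate numbers correlated at -0.258, -0.21 and 0.405. These are deviations from means of 3 libraries and cannot decide whether equal numbers were paired. The labels do not say that equal numbers were cultured or prepared together, so the block was not used in the main fit. Leaving out 1 library gave 13 to 774 called genes, 12 to 359 higher and 0 to 415 lower; the highest counts came without dDAVP 1. Lower calls numbered 3 with library totals as the only scaling and 3 with FPKM at either pseudocount, and 1 with dDAVP 1 alone. Each of 39 called genes kept its direction wherever it was fitted, always on all or part of the libraries that chose these genes. Signs that reversed were of genes called under neither setting. Over the fits without 1 library, log2 fold changes ranged from -0.042 to 0.591 for Car2, from -0.523 to 0.167 for Cited2, from -0.0196 to 0.593 for Nfkbia and from -0.336 to 0.308 for Csf1r, which was 0.0153 with library totals and 0.00046 with FPKM plus 1. With dDAVP 1 alone they were 0.274 for Cited2, -0.183 for Atp6v1b1, -0.412 for Bckdha, -0.137 for Avpr2, -0.0739 for Cd68 and -0.459 for Scnn1b. The cause of these shifts was not tested. Genes with under 10 counts per library, such as Car15, Scg5 and Aldh1a7 in control, are limited by depth.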

Other observations

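Among genes called by DESeq2 and not by edgeR in replicates 1 to 3, Tshz1, a zinc-finger transcription factor, was at 0.627, 1.75 and 1.31 CPM in control and at 5.49, 2.30 and 4.40 CPM with dDAVP. Zfp750, a regulator of epidermal differentiation, was at 1.64, 1.80 and 3.84 CPM against 7.02, 6.20 and 7.97 CPM. Krt19, a keratin of simple epithelia, missed the edgeR threshold at 367, 290 and 411 CPM against 655, 964 and 873 CPM (edgeR adjusted p = 0.0511). Itgb6, an epithelial integrin subunit, was at 3.86, 8.72 and 2.76 CPM in control and at 2.44, 1.17 and 1.02 CPM with dDAVP. All 4 genes stood apart between groups; Tshz1 was highest in dDAVP 1, and Krt19 and Itgb6 moved least in it.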
